A study of Homo sapiens with 32 samples.

Results

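The genes described here are 41 protein coding genes that each extend over about 500 kb of genome or more, several of which lie at common fragile sites. They were chosen by name from the 60107 gene rows of the count table, and all 41 were found. In GENCODE 29 their spans run from 523 kb (FAF1) to 2474 kb (RBFOX1), with a median of 899 kb, and 16 of them exceed 1000 kb. The table holds 380 genes of 500 kb or more, so 339 genes as long as these are not members and serve below as the closest comparison. Exons make up a median of 0.991% of the members' spans, against 15.8% over all 19628 protein coding genes, whose median span is 27.2 kb. The members sit on 16 chromosomes, with 7 on chromosome 3 and 5 on chromosome 7.

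RNA polymerase II needs hours to cross a gene of this size, and the supercoils it raises on the way are relaxed by topoisomerases such as TOP1. Camptothecin (CPT) traps TOP1 on nicked DNA, which blocks elongation and makes long transcription units sensitive to it. Common fragile sites are regions that break when replication is slowed, and many of them lie inside very long transcribed genes, where replication and transcription can meet. ATM is a kinase that signals DNA double-strand breaks.

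RNA was sequenced with QuantSeq, a method that reads 1 tag near the 3′ end of each transcript, so counts do not grow with the length of a gene and a tag shows a transcript that reached its end. A tag does not show where its transcript began. Several members, such as DLG2, FOXP1, ZBTB20 and LPP, have starts inside the gene, so a tag need not come from a transcript of the full span. HEK293T is a human embryonic kidney line that carries the SV40 large T antigen, and U2OS is a human osteosarcoma line. The 32 libraries carry labels of 7 groups. U2OS CPT (n = 4, 400 nM) and U2OS DMSO (n = 4) were treated for 24 h and left to recover for 48 h. HEK293T CPT (n = 4, 100 nM) and HEK293T DMSO (n = 8, of which 4 in each deposited set of libraries) had the same schedule. A group labelled HEK293T ATM KO (n = 4) is taken as the ATM inhibitor KU-55933 (9 µM), since the study describes RNA sequencing of HEK293T cells after ATM inhibition and names knockouts of ATM in U2OS and HEK293 cells only. U2OS WT and U2OS ATM KO (n = 4 each) were grown for 72 h without drug, and the knockout line came from individual CRISPR clones, so that ATM loss and clone cannot be told apart.

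Each library held between 1232674 and 6362433 counts on genes (median 3359464), so that 3 counts correspond to 0.472 to 2.43 CPM (counts scaled to the library's total, per 1000000). In the later set, all 16 libraries had the marker profile of their labelled line. In the first set, 14 of 16 libraries contradicted the labelled line. Over all libraries, the mean of the U2OS markers (log2(CPM + 1)) was 6.23 to 7.32 in libraries with a U2OS profile and 1.45 to 3.27 in those with a HEK293T profile, and that of the HEK293T markers was 2.99 to 3.79 and 5.24 to 5.82. Groups here remain those of the labels. Comparisons in the first set were therefore made between labels within 1 marker profile, they are described as libraries labelled so, and no direction is drawn from them for CPT or for ATM. Whether the labels HEK293T CPT and DMSO were exchanged with U2OS ATM KO and WT is not settled here, so that a difference between the labels CPT and DMSO in this set may be one between ATM KO and WT, and the reverse. A library labelled U2OS WT and another labelled HEK293T DMSO had the profile of their label, unlike the others of their groups, and their values are given apart. ATM transcripts averaged 31.97 CPM (SD 4.33, n = 4) under the label U2OS ATM KO and 25.8 CPM (SD 4.97, n = 3) under the label WT. They averaged 56.1 CPM (SD 14.1, n = 4) under the label HEK293T CPT and 67.7 CPM (SD 9.66, n = 3) under the label DMSO of the first set, and ATM was called in neither pair. A 3′ tag outside the edited exon does not check a knockout. Values below are CPM scaled with TMM factors over all libraries.

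In U2OS cells treated with CPT, 4 members were called at an adjusted p under 0.05 with a log2 change beyond 1 either way, and a promoter of each is shown because these genes carry the comparison that follows. The sequences run from 250 bases before to 50 bases after a RefSeq transcript start (GRCh38.p14), and where a gene had several starts the window with the highest GC content is printed. For FOXP1 and FRMD4A the printed window lies downstream of another start of the gene, so a transcript from it would not cross the whole span. Capitals mark the GC box GGGCGG and the CCAAT box, on either strand, and boxes that overlap run together, as do a pair of GC boxes in FOXP1 that share 1 base. FOXP1 encodes a forkhead transcription factor and CNTNAP2 a neurexin family adhesion protein. MACROD2 encodes an enzyme that removes mono-ADP-ribose, and FRMD4A a scaffold of cell polarity.
FOXP1, chr3:71064875-71065174, minus strand: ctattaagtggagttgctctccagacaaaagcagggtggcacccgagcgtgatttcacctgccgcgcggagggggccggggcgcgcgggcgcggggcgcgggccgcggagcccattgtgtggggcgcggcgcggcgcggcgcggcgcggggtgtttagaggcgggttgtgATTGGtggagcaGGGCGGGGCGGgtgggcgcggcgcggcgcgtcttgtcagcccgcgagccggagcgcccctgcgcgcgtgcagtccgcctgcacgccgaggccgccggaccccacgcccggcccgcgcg
CNTNAP2, chr7:146116551-146116850, plus strand: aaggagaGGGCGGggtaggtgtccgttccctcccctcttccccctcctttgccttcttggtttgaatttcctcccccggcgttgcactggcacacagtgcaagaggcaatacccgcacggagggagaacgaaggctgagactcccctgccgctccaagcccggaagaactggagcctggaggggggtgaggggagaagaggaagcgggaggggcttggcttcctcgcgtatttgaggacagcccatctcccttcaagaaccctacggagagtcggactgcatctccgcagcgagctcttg
MACROD2, chr20:13995266-13995565, plus strand: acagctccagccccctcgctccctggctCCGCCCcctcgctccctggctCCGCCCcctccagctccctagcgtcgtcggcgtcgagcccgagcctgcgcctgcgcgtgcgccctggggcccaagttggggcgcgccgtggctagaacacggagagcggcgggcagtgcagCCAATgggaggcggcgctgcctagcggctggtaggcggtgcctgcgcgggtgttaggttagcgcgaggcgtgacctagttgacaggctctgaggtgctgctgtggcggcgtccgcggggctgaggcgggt
FRMD4A, chr10:13971847-13972146, minus strand: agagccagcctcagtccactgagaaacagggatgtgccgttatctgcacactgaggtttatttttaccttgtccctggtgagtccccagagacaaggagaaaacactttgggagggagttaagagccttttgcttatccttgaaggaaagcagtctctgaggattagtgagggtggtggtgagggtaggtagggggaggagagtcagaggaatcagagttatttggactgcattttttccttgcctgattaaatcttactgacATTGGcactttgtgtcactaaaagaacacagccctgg

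The FOXP1 window had a GC content of 77.3% and 51 CpG dinucleotides, the MACROD2 window 73.3% and 34, the CNTNAP2 window 61.7% and 16, and the FRMD4A window 47.3% and 1. Windows rich in CpG were thus found both for a member that fell and for one that rose, among windows picked by their GC content. RefSeq gave 85 such windows for 36 of the 41 members. A GC box was found in 44.7% of them, against 44.95% of all 35116 windows in that table. A CCAAT box was found in 34.1% of them against 34.6%, a TATA box (TATAAA) in 11.8% against 11.5%, and an AP-1 site (TGANTCA) in 10.6% (9 windows) against 7.71%. Apart from the AP-1 site, the members' shares lay within 1 percentage point of those of all windows. A gene with several starts counts once per window. ZBTB20 and LPP each gave several of the windows with an AP-1 site, so no enrichment is read from that share.

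In U2OS cells, the first question was how the very long genes stood after CPT and recovery. The drop of FOXP1 was the change with the smallest adjusted p among them. CNTNAP2 and NBEA fell as well, and FRMD4A, MACROD2 and PRKCE rose. Of 39 members tested, 3 rose and 10 fell at an adjusted p under 0.05 (quasi-likelihood test of edgeR, adjusted after Benjamini-Hochberg over all genes). This is 33.3% of the members, against 31.9% of all 19080 genes tested (16.6% higher, 15.3% lower), so these members were called about as often as genes at large. The members' median log2 fold change was -0.08 (-0.18 to -0.10 when 1 library was left out), and that of all genes was 0.01. Of those called, 2 that rose and 2 that fell also passed a log2 fold change of 1 either way, against 13.5% of all genes (7.97% higher, 5.5% lower). The CPT and DMSO libraries did not overlap in 4 members on the higher and 7 on the lower side, against 15.5% and 14.6% of all genes. The summed level of all members was 1090.3 ± 35.5 CPM after CPT and 1386 ± 75.01 CPM under DMSO (SD, n = 4 each), and FOXP1 made the largest part of that gap. NAALADL2 (2 counts in CPT, 0 in DMSO) and PTPRD (3 counts and 1 count) were too low to test. In bulk RNA, fewer cells of a type and less RNA per cell cannot be told apart.

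**Figure D1:**
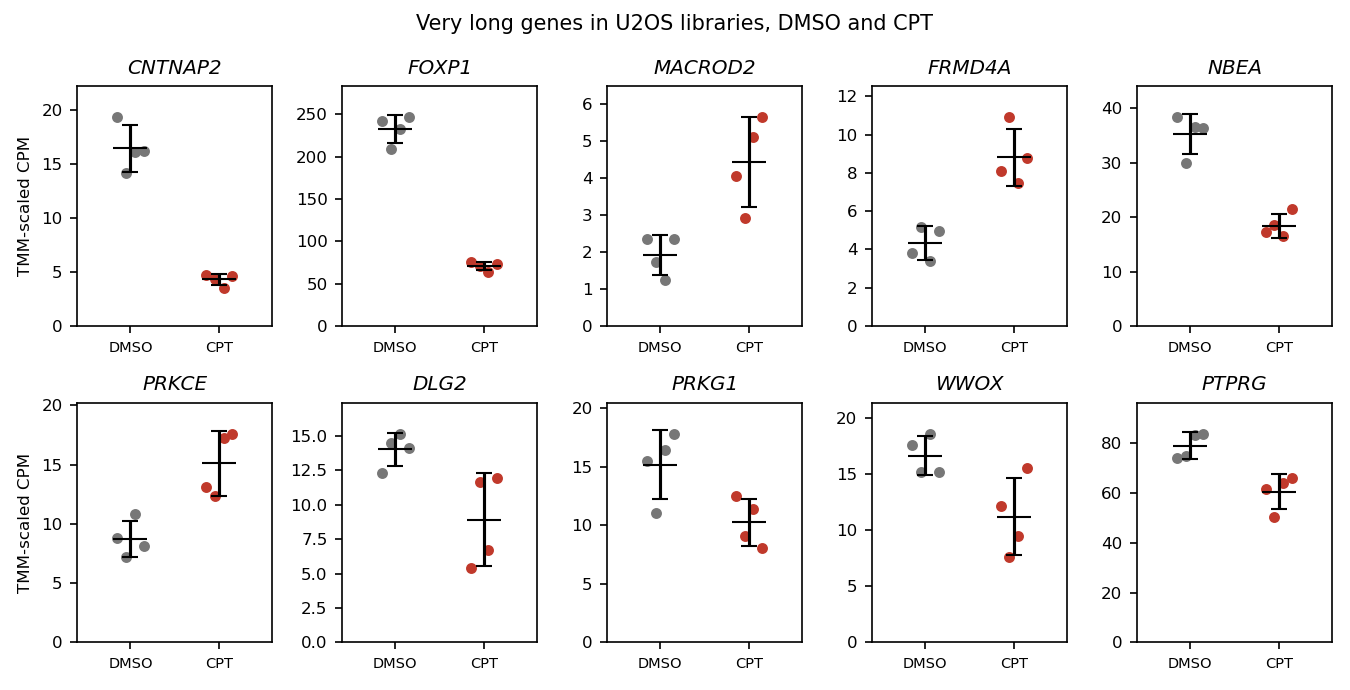
The 10 very long genes with the largest log2 fold changes among those called in U2OS cells, in TMM-scaled CPM on linear axes from 0; points are the 4 DMSO and 4 CPT libraries, bars the mean and SD. The groups stand apart for all but PRKG1 and WWOX, and FOXP1 goes from a mean of 233 to 70.8 CPM.

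FOXP1 had the highest level of all members in U2OS DMSO libraries. It stood at 243, 209, 233 and 247 CPM under DMSO and at 75.6, 70.5, 64.1 and 72.9 CPM after CPT. The lowest DMSO library lay far above the highest CPT library. The log2 fold change was -1.71 ± 0.11 (SE, adjusted p = 2.16e-13 in the edgeR fit). CNTNAP2 stood at 19.3, 14.1, 16.1 and 16.3 CPM under DMSO and at 4.72, 4.36, 3.54 and 4.58 CPM after CPT, again without overlap. Its log2 fold change was -1.91 ± 0.22 (SE, adjusted p = 3.56e-08). NBEA, a BEACH domain protein of membrane traffic, stood at 38.4, 29.97, 36.5 and 36.4 CPM under DMSO and at 17.2, 18.5, 16.5 and 21.5 CPM after CPT, and each CPT library was below each DMSO library. NBEA changed by -0.93 ± 0.15 (SE, adjusted p = 1.11e-05).

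The 3 members that rose did so from low levels. FRMD4A stood at 3.81, 5.17, 3.40 and 4.98 CPM under DMSO and at 8.10, 10.9, 7.47 and 8.81 CPM after CPT. The groups did not overlap, and the log2 fold change was 1.03 ± 0.25 (SE, adjusted p = 0.00195). MACROD2 stood at 2.34, 1.72, 1.24 and 2.36 CPM under DMSO and at 4.05, 2.91, 5.11 and 5.64 CPM after CPT. It rested on 26 and 49 counts in all, with a log2 fold change of 1.18 ± 0.36 (SE, adjusted p = 0.0118), and leaving out a library brought the adjusted p to as much as 0.04996. PRKCE, the epsilon form of protein kinase C, stood at 8.79, 7.24, 10.8 and 8.13 CPM under DMSO and at 13.2, 12.4, 17.3 and 17.6 CPM after CPT. Its groups did not overlap either, and it rose by 0.79 ± 0.20 (SE, adjusted p = 0.00290).

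The other 7 members that fell changed less. DLG2, a synaptic scaffold, stood at 12.3, 14.5, 15.2 and 14.2 CPM under DMSO and at 5.40, 11.6, 6.68 and 11.98 CPM after CPT. The groups touched without overlap, and the log2 fold change was -0.64 ± 0.22 (SE, adjusted p = 0.0270). PRKG1, a cGMP-dependent protein kinase, stood at 15.5, 11.03, 16.4 and 17.8 CPM under DMSO and at 12.5, 9.09, 11.4 and 8.10 CPM after CPT, and a pair of the CPT libraries lay above the lowest DMSO library. PRKG1 changed by -0.57 ± 0.20 (SE, adjusted p = 0.0310). WWOX, an oxidoreductase whose gene lies over a common fragile site, stood at 17.6, 15.2, 18.6 and 15.2 CPM under DMSO and at 12.1, 7.64, 9.43 and 15.5 CPM after CPT. The highest CPT library of WWOX lay within the DMSO range, and the change was -0.56 ± 0.20 (SE, adjusted p = 0.0329). PTPRG, a receptor tyrosine phosphatase, stood at 74.1, 75.1, 83.5 and 83.9 CPM under DMSO and at 61.7, 50.5, 64.1 and 66.2 CPM after CPT, without overlap. PTPRG changed by -0.38 ± 0.12 (SE, adjusted p = 0.0166). The junction scaffolds MAGI1 and PARD3 and the transcription factor CAMTA1 fell by between -0.37 and -0.34.

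How many members fell depended on single libraries. Without CPT replicate 27, CPT replicate 28 or DMSO replicate 32, 8 members were called in place of 13, with 3 higher and 5 lower. FOXP1, CNTNAP2, NBEA, FRMD4A and PRKCE were called under each of the 15 alternatives run, while WWOX, MAGI1, PARD3, PRKG1, DLG2 and CAMTA1 each failed in 4 or 5 of them. With library size alone in place of TMM factors, the median log2 fold change of all genes moved from 0.01 to -0.16. The members' median was then -0.24. The share of calls that were higher went from 52.1% to 34.9%, and 3 members rose and 14 fell.

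**Figure D2:**
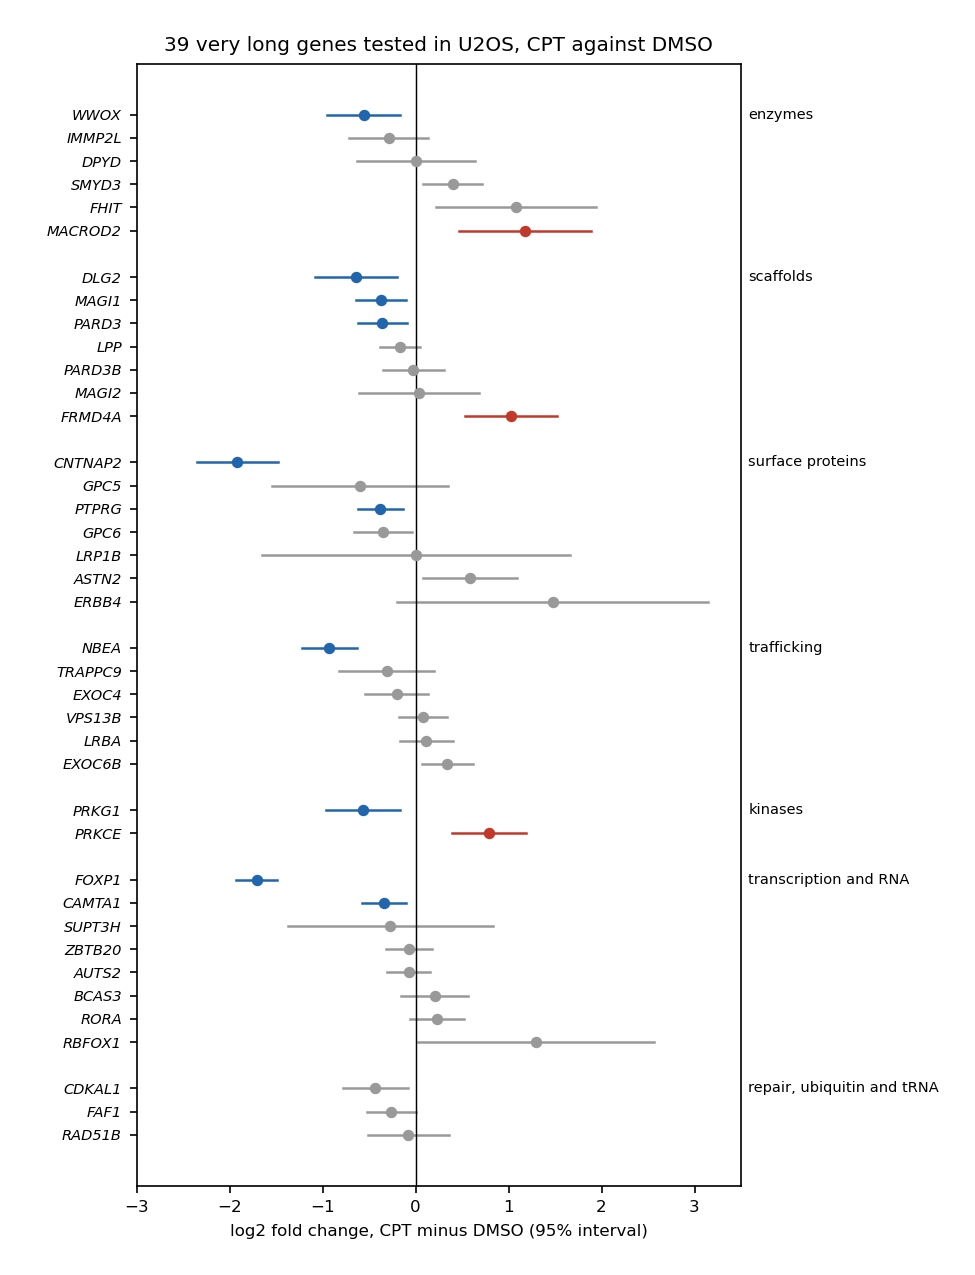
Log2 fold change of CPT minus DMSO in U2OS cells (x axis, points) with its 95% interval (lines) for the 39 very long genes tested, by role; red marks members called higher, blue those called lower, grey those not called. FOXP1, CNTNAP2 and NBEA lie farthest left among those called, and MACROD2, FRMD4A and PRKCE are the 3 called to the right of 0.

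Calls by role are read against 16.6% of all genes higher and 15.3% lower. Of 7 scaffolds, 1 was higher (FRMD4A) and 3 were lower (DLG2, MAGI1, PARD3), while the focal adhesion protein LPP stood at 164 ± 16.5 CPM under DMSO and 146 ± 6.46 CPM after CPT (SD, n = 4 each) and was not called. Both kinases were called, in opposite directions. Of 8 genes of transcription and RNA, FOXP1 and CAMTA1 fell. The repressor ZBTB20, next after FOXP1, LPP and PARD3 in level, stood at 98.0 ± 8.30 and 92.7 ± 16.04 CPM. AUTS2, a partner of Polycomb complexes, stood at 74.8 ± 3.71 and 70.7 ± 5.43 CPM (SD, n = 4 each), with neither called. Of 7 surface proteins tested, CNTNAP2 and PTPRG fell. The glypican GPC6 was at 33.1 ± 7.43 and 25.8 ± 1.46 CPM (adjusted p = 0.0974 in the edgeR fit). Of 6 genes of membrane traffic, NBEA alone was called, and the related BEACH domain protein LRBA had a log2 fold change of 0.11 ± 0.15 (SE). None of RAD51B, a recombination gene, CDKAL1, a tRNA-modifying enzyme, and FAF1, a ubiquitin adaptor, was called, with log2 fold changes of -0.08, -0.43 and -0.26. Of 6 enzymes tested, WWOX fell and MACROD2 rose. FHIT, a diadenosine triphosphate hydrolase whose gene lies over a common fragile site, stood at 0.879, 2.41, 0.928 and 1.31 CPM under DMSO and 2.36, 2.55, 2.75 and 3.87 CPM after CPT. The FHIT groups overlapped at 1 library each and the adjusted p was 0.0588. The estimates for WWOX and FHIT, the fragile-site genes best known as such, lay on opposite sides of 0. FHIT was not called, WWOX lost its call in 5 of the 15 alternatives, and the difference between them was not tested.

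The position of these genes among genes of other lengths was described by genomic span, without a test. Span is that of the annotated gene, not of the transcript that gave a tag. Among protein coding genes, the share called in U2OS cells after CPT was 34.7% under 10 kb, 35.7% from 10 to 30 kb, 38.0% from 30 to 100 kb, 41.8% from 100 to 200 kb, 41.2% from 200 to 500 kb and 45% at 500 kb and over. The calls went in both directions: at 500 kb and over, 21.7% were higher and 23.3% lower, and the median log2 fold change was -0.03. Long genes also had lower levels (median log2 CPM 2.93 at 500 kb and over, 4.19 at any span). Among those over a log2 CPM of 3, a limit on the mean of both groups that a gene can pass through 1 of them alone, 56.2% of the genes of 500 kb and over were called, against 43.6% at any span. At any level, 3 of 39 members were higher and 10 lower. Of the 219 other protein coding genes of 500 kb and over, 53 were higher and 50 lower. Over the limit, 1 of 27 members was higher and 10 were lower, and of the 101 others 33 were higher and 28 lower. CNTNAP2 passed the limit through its DMSO libraries alone, while FRMD4A and MACROD2, which rose, did not pass it. No conclusion is drawn from the split over the limit. The difference between members and others was not tested, since the members were picked by name. Of the 10 lower members, 6 lost their call in 4 or 5 of the 15 alternatives. Across the 39 members, log10 span and log2 fold change had a Pearson r of 0.10, as a description over genes that share the same 8 libraries. Across the 27 over the limit it was -0.46. That set holds CNTNAP2 (2305 kb) and leaves out MACROD2 (2058 kb) because of the limit, so no relation is read from it.

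The largest changes among the very long genes that are not members are given as a description, since they were picked by their size. The 245 such genes tested had quartiles of the log2 fold change of -0.67 and 0.89, and the 39 members -0.36 and 0.22. Over a mean log2 CPM of 3, a limit that CSMD3, SUGCT and NCKAP5 passed through their CPT libraries alone and SOX5 and GALNT17 through their DMSO libraries alone, the largest rises were those of CSMD3 (1214 kb), from 0.9499 ± 0.756 CPM to 40.9 ± 5.98 CPM, and SUGCT (726 kb), from 6.12 ± 2.38 CPM to 144 ± 16.6 CPM (SD, n = 4 each). NRG1, a ligand of ERBB receptors (1129 kb), went from 9.18 ± 0.675 CPM to 71.9 ± 5.42 CPM, and NCKAP5 (897 kb) rose by 2.67 ± 0.23 (SE, log2). The largest falls were those of SEMA3A, a secreted axon guidance factor (537 kb), from 150.2 ± 20.5 CPM to 14.9 ± 1.60 CPM, and SOX5, a transcription factor (1033 kb), from 40.7 ± 4.13 CPM to 5.48 ± 1.76 CPM. ADGRL3 (877 kb) and GALNT17 (581 kb) changed by -2.02 ± 0.13 and -1.82 ± 0.23 (SE, log2).

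The factors that polymerase needs to cross such genes were read from a list of 31 genes of elongation and DNA topology. In U2OS cells after CPT, 6 rose and 7 fell, against 16.6% of all genes higher and 15.3% lower. TOP1 itself stood at 382 ± 105 CPM under DMSO and 340 ± 43.7 CPM after CPT (SD, n = 4 each) and was not called (adjusted p = 0.427 in the edgeR fit). ELL2, an elongation factor, rose by 1.22 ± 0.20 (SE, log2), and CCNK and CDK12, which together phosphorylate polymerase II, rose by 0.67 and 0.31. HEXIM1, which holds back P-TEFb, changed by -0.95 ± 0.13, SSRP1, a histone chaperone, by -0.79 ± 0.11, TOP2A by -0.68 ± 0.12 and POLR2A by -0.54 ± 0.12 (SE, log2). Of 12 genes tested that guard fragile sites, 1 rose and 3 fell: POLH, a translesion polymerase, rose by 1.09 ± 0.18, and CHEK1 (-0.97 ± 0.14), BLM (-0.96 ± 0.13) and FANCD2 (-0.52 ± 0.12) fell (SE, log2).

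In HEK293T cells, the libraries taken as ATM inhibition were compared with the DMSO libraries of the same set. None of 39 members tested was called, and 1 of them (MAGI2) had an unadjusted p under 0.05, against 5.53% of all genes. The groups did not overlap in 1 member on the higher and 3 on the lower side, against 1.53% and 1.54% of all genes. All genes gave 1 call of 18413 (0.00543%) in the edgeR fit, and 1019 at an unadjusted p under 0.05. DESeq2 and the likelihood ratio test called none of the members either. The smallest adjusted p among the members was 0.888, and their log2 fold changes ran from -0.53 to 0.42 with a median of 0.02. MAGI2 stood at 5.20, 6.60, 5.98 and 6.29 CPM under DMSO and at 5.13, 4.82, 3.77 and 2.64 CPM with the inhibitor. The groups did not overlap, and the log2 fold change was -0.53 ± 0.26 (SE). ZBTB20 stood at 5.20, 10.2, 7.31 and 6.29 CPM and at 8.20, 8.79, 10.4 and 11.1 CPM, with overlap. MACROD2 stood at 2.34, 4.06, 2.44 and 2.36 CPM and at 2.05, 4.54, 4.35 and 3.52 CPM, also with overlap. FOXP1, which fell in U2OS cells after CPT, had a log2 fold change of 0.06 ± 0.10 (SE) here, and CNTNAP2 one of 0.24 ± 0.14 (SE). The summed level of all members was 1091 ± 25.8 CPM with the inhibitor and 1089 ± 30.9 CPM under DMSO (SD, n = 4 each).

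The libraries labelled U2OS ATM KO (n = 4) and U2OS WT (n = 3) that share a HEK293T marker profile were compared next. Here the fragile-site gene FHIT was lower, with IMMP2L, a subunit of a mitochondrial inner membrane peptidase, and SUPT3H, a subunit of the SAGA complex, while CNTNAP2 was higher. Of 40 members tested, 3 were higher and 8 lower (27.5%), against 32.1% of all genes (15.8% higher, 16.3% lower). Of those called, 2 higher and 3 lower also passed a log2 difference of 1, against 13.3% of all genes (8.67% and 4.63%). The labels did not overlap in 4 members on the higher and 10 on the lower side, against 16.9% and 18.1% of all genes. The members' median log2 fold change was -0.23 and that of all genes 0.03. Reads on no gene made up 15.8% to 18.5% of the libraries labelled ATM KO and 9.39% to 10.99% of those labelled WT, and the part of this difference in the results was not tested.

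**Figure D3:**
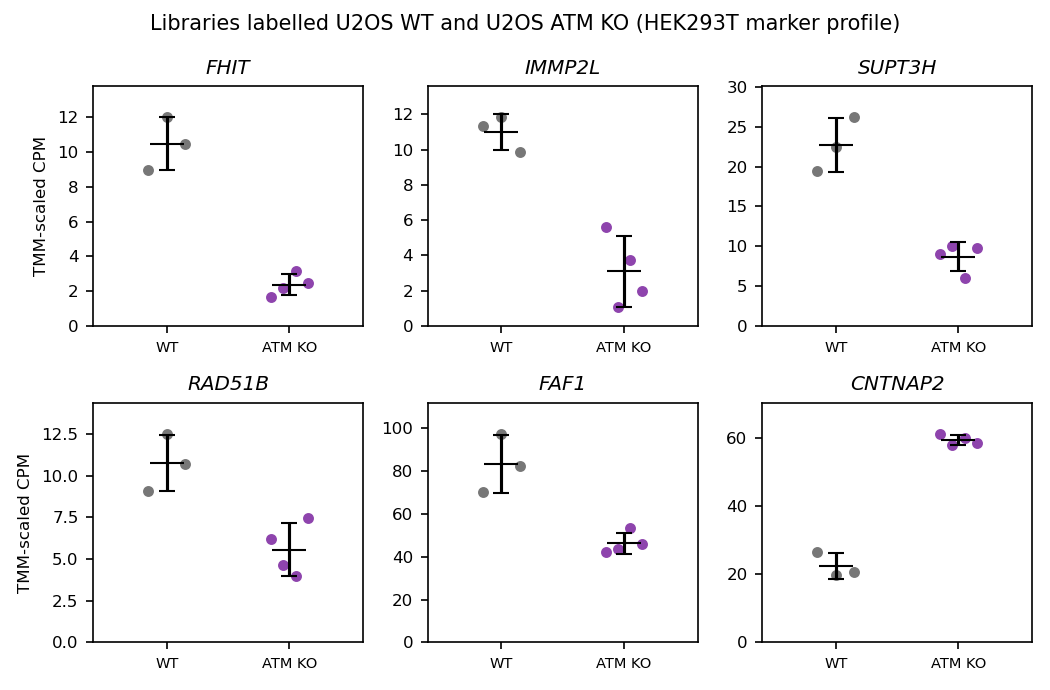
TMM-scaled CPM (linear axes from 0) of 6 very long genes in the libraries labelled U2OS WT (3 points) and U2OS ATM KO (4 points) that have a HEK293T marker profile; bars are the mean and SD. All 6 genes separate the labels, with CNTNAP2 at 22.3 CPM under WT and 59.5 CPM under ATM KO and the other genes lower under ATM KO.

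FHIT stood at 8.95, 12.01 and 10.5 CPM in the libraries labelled WT and at 1.69, 2.17, 3.15 and 2.44 CPM in those labelled ATM KO. The labels were far apart, with a log2 fold change of -2.13 ± 0.27 (SE, adjusted p = 7.58e-07 in the edgeR fit). IMMP2L stood at 11.3, 11.8 and 9.87 CPM and at 5.62, 1.09, 3.72 and 1.99 CPM. The libraries labelled ATM KO spread widely but remained below the others, and the log2 fold change was -1.88 ± 0.31 (SE, adjusted p = 3.38e-05). SUPT3H stood at 19.5, 22.5 and 26.2 CPM and at 8.995, 10.1, 6.01 and 9.77 CPM, also without overlap, and differed by -1.36 ± 0.20 (SE, adjusted p = 7.19e-06). The lone library with this profile that is labelled HEK293T DMSO held 7.30 CPM of FHIT, 9.73 CPM of IMMP2L and 27.6 CPM of SUPT3H. In each of these genes it lay outside the range of both labels, above those labelled ATM KO and, of those labelled WT, below the lowest in FHIT and IMMP2L and above the highest in SUPT3H.

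RAD51B, which works in homologous recombination, stood at 9.11, 12.5 and 10.7 CPM in the libraries labelled WT and at 6.18, 4.62, 4.01 and 7.48 CPM in those labelled ATM KO. FAF1 stood at 70.2, 97.2 and 82.0 CPM and at 42.2, 43.7, 53.2 and 45.7 CPM. Neither gene overlapped between the labels, and their log2 fold changes were -0.90 ± 0.23 and -0.83 ± 0.14 (SE, adjusted p = 0.00404 and 5.30e-05). GPC6, the lysine methyltransferase SMYD3 and BCAS3 were the other members that were lower, with log2 differences of -0.82, -0.78 and -0.63. CNTNAP2 was higher, at 26.7, 19.8 and 20.6 CPM under the label WT and 61.3, 57.9, 60.1 and 58.6 CPM under the label ATM KO. Its log2 fold change was 1.42 ± 0.15 (SE, adjusted p = 4.71e-08), and the lone library labelled HEK293T DMSO held 27.97 CPM, above the highest labelled WT and below the lowest labelled ATM KO. RORA, a nuclear receptor, was higher by 0.69 ± 0.19, and ZBTB20 by 1.06 ± 0.40 (SE, log2) on 31 and 67 counts, with overlap. ZBTB20 lost its call in 7 of 14 alternatives. DPYD, an enzyme of pyrimidine breakdown, had a log2 difference of 1.60 ± 0.82 (SE, adjusted p = 0.135) on 4 and 13 counts. FOXP1 averaged 126 CPM (SD 7.65) under the label WT and 123 CPM (SD 6.35) under the label ATM KO.

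Of the list of 31 elongation and topology genes, 14 were higher and 3 lower between these labels, against 15.8% of all genes higher and 16.3% lower. HEXIM1 was higher by 1.96 ± 0.20, AFF4 by 0.88 ± 0.12, POLR2A by 0.87 ± 0.13 and TOP1 by 0.72 ± 0.13, and SSRP1 was lower (-0.55 ± 0.12; SE, log2). Of 12 genes that guard fragile sites, 1 was higher and 3 were lower. POLH was higher by 1.49 ± 0.23, and FANCI, ATR and FANCD2 were lower (-0.56, -0.54 and -0.41, log2). When the U2OS WT library of the other profile was added, 1 member was called in place of 11, and ZBTB20 turned to -2.19 on the log2 scale. FHIT and IMMP2L then lost their calls, with adjusted p of 0.0575 and 0.0557, but kept their direction and about their size. Over the alternatives that left out no library, their log2 fold changes ran from -2.14 to -1.84 (FHIT) and from -1.89 to -1.75 (IMMP2L).

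The libraries labelled HEK293T CPT (n = 4) and HEK293T DMSO (n = 3) of the first set share a U2OS marker profile. Between these labels FOXP1 was lower, and CNTNAP2, ZBTB20 and the receptor tyrosine kinase ERBB4 were higher. Of 39 members tested, 6 were higher and 2 lower (20.5%), against 10.4% of all genes (4.89% higher, 5.55% lower). The other genes of 500 kb and over were called at a like share, 19.5%, with more of them lower (11.7%) than higher (7.79%). Of those called, 3 higher and 1 lower also passed a log2 difference of 1, against 4.46% of all genes (2.32% and 2.14%), and the labels did not overlap in 9 members on the higher and 5 on the lower side, against 9.25% and 9.86% of all genes. The members' median log2 fold change was 0.12 (0.02 to 0.15 when 1 library was left out) and that of all genes 0.03. Reads on no gene made up 22.8% to 36.1% of the libraries labelled CPT and 22.9% to 33.5% of those labelled DMSO. The part of this spread in the results was not tested.

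FOXP1 stood at 148, 123 and 171 CPM in the libraries labelled DMSO and at 44.9, 54.5, 51.0 and 65.0 CPM in those labelled CPT. The labels did not overlap, with a log2 fold change of -1.44 ± 0.16 (SE, adjusted p = 3.89e-08 in the edgeR fit). The lone library with this profile that is labelled U2OS WT held 148 CPM, within the range of those labelled DMSO. For the other genes given here it lay outside that range, with 10.2 CPM of CNTNAP2, 75.8 CPM of ZBTB20 and 0.852 CPM of ERBB4, each between the labels. It held 65.6 CPM of AUTS2, below the lowest library labelled DMSO, and 151 CPM of LPP, above the highest. CNTNAP2 stood at 6.44, 6.08 and 8.73 CPM and at 20.2, 18.4, 21.9 and 24.6 CPM, and differed by 1.58 ± 0.24 (SE, adjusted p = 1.23e-05). Since these libraries have a U2OS profile and may be U2OS ATM KO and WT under exchanged labels, no response to CPT is read from these values.

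ERBB4 stood at 0, 0.608 and 0.563 CPM in the libraries labelled DMSO and at 3.52, 3.34, 2.91 and 2.67 CPM in those labelled CPT. It rested on 4 and 40 counts, with a log2 fold change of 2.62 ± 0.67 (SE, adjusted p = 0.00718). ZBTB20 stood at 67.3, 57.7 and 69.6 CPM and at 96.7, 130.1, 122 and 113 CPM, and differed by 0.83 ± 0.16 (SE, adjusted p = 0.000434). AUTS2 stood at 66.3, 69.6 and 83.1 CPM and at 94.1, 116, 100.4 and 123 CPM, with a log2 fold change of 0.56 ± 0.16 (SE, adjusted p = 0.0163). The labels did not overlap in any of these genes. RORA and SUPT3H were higher by 0.74 ± 0.21 and 1.37 ± 0.45, and LPP was lower (-0.53 ± 0.16; SE, log2). SUPT3H rested on 15 and 61 counts and lost its call in 8 of 14 alternatives, and turned to -0.83 when the HEK293T-profile library was added. With that library, 1 member (FOXP1) was called in place of 8, and without DMSO replicate 5 there were 5. Of the 31 elongation and topology genes, 1 was higher and 3 were lower between these labels (ELL2, CDK9 and HEXIM1, by -0.87, -0.96 and -0.49, log2), against 4.89% of all genes higher and 5.55% lower. Of 12 genes that guard fragile sites, 2 were higher and 1 was lower.

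The lines were then compared without damage. Under DMSO in the later set, 29 of 41 members were called between U2OS and HEK293T cells (70.7%), 13 higher and 16 lower in U2OS, against 62.1% of all genes (32% higher, 30.1% lower) and 79.1% of the other genes of 500 kb and over. Of those called, 8 members higher and 7 lower in U2OS also passed a log2 difference of 1, against 39.9% of all genes (21.8% and 18.1%). The lines did not overlap in 12 members higher and 15 lower in U2OS, against 28.1% and 26.7% of all genes. Line and culture cannot be told apart here. FOXP1, LPP and PARD3 were the highest in U2OS, at 233 ± 16.6, 164 ± 16.5 and 145 ± 30.4 CPM (SD, n = 4 each). The gap between FOXP1 and LPP exceeded their spread, and that between LPP and PARD3 did not. In HEK293T cells FOXP1, AUTS2 and CAMTA1 led at 110.0 ± 7.40, 104 ± 4.99 and 92.9 ± 10.1 CPM, of which the first pair lay within their spread. Tags of 25 members in U2OS and 29 in HEK293T averaged 10 CPM or more. In 4 and 3 members, no library passed 3 counts.

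**Figure D4:**
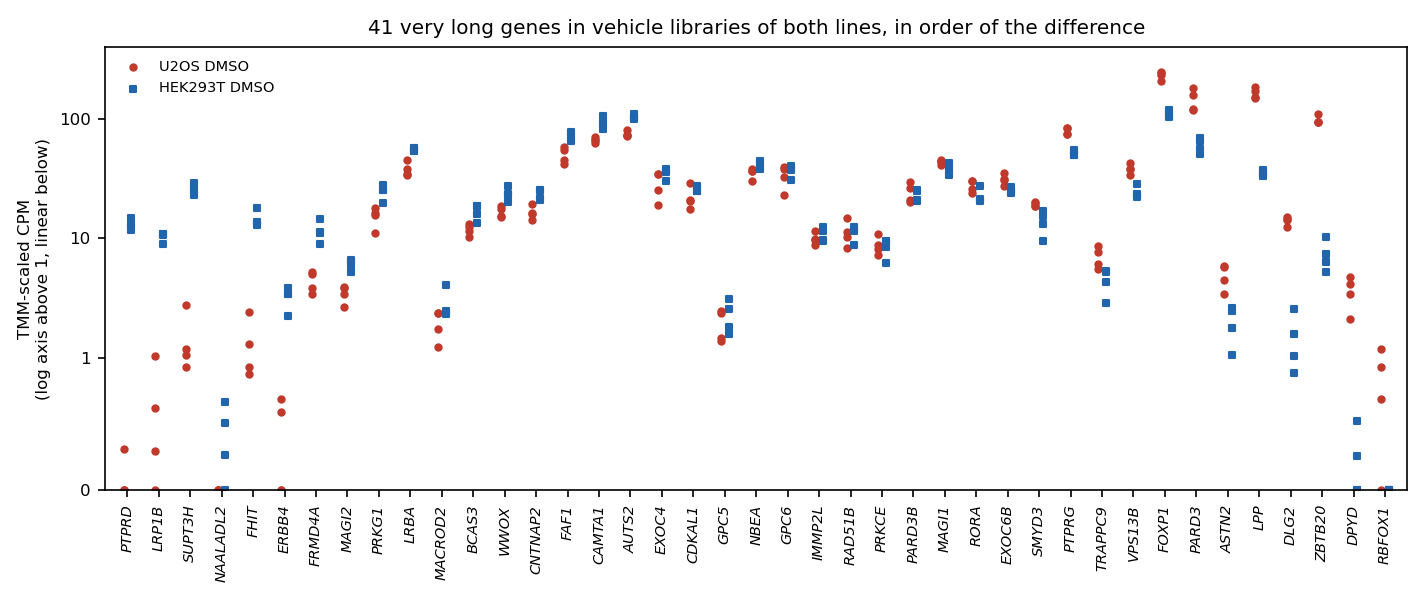
TMM-scaled CPM of the 41 very long genes in the 4 U2OS DMSO libraries (red circles) and 4 HEK293T DMSO libraries (blue squares), on an axis that is logarithmic above 1 CPM and linear below, in order of the difference between the lines. PTPRD, LRP1B and SUPT3H stand far lower in U2OS at the left, and ZBTB20 and DLG2 far higher at the right.

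ZBTB20 stood at 94.3, 93.7, 110.4 and 93.6 CPM in U2OS and at 5.20, 10.2, 7.31 and 6.29 CPM in HEK293T, a log2 difference of 3.76 ± 0.16 (SE, adjusted p = 2.05e-20 in the edgeR fit). LPP and DLG2 were higher in U2OS by 2.23 ± 0.12 and 3.21 ± 0.28, and PARD3 and FOXP1 by 1.26 and 1.09 (log2). SUPT3H stood at 1.17, 2.76, 0.928 and 1.05 CPM in U2OS and at 29.1, 23.4, 22.8 and 25.7 CPM in HEK293T, a difference of -4.10 ± 0.26 (SE, adjusted p = 1.32e-15). FHIT was lower in U2OS as well, at 0.879 to 2.41 CPM against 12.8 to 18.03 CPM (-3.39 ± 0.29; SE, log2), and WWOX differed by -0.49 ± 0.16 (SE, log2). None of these groups overlapped.

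Transcripts of several surface proteins were near absent from U2OS cells, while those of PTPRG, GPC6 and CNTNAP2 averaged 79.2, 33.1 and 16.4 CPM under DMSO. LRP1B, of the LDL receptor family, stood at 0.293, 1.03, 0.619 and 0 CPM in U2OS and at 10.7, 10.9, 8.86 and 10.7 CPM in HEK293T, with a log2 difference of -4.40 ± 0.40 (SE, adjusted p = 1.09e-11). PTPRD, a receptor tyrosine phosphatase, gave 1 count in all U2OS libraries together and 212 in HEK293T, where it stood at 12.7, 11.7, 14.8 and 13.1 CPM. The ratio was 176, with an exact 95% interval for counting error of 31.2 to 6976. DPYD gave 47 counts in U2OS and 3 in HEK293T, a ratio of 18.9 (6.08 to 94.9). The splicing factor RBFOX1, the longest member, gave 9 counts in U2OS and 0 in HEK293T. Its level in U2OS was 3.62 times a floor of 3 counts over the HEK293T group. NAALADL2 gave 0 counts in U2OS and 6 in HEK293T, 1.66 times a floor of 3 counts over the U2OS group. Both ratios take the higher count as exact, so they are not lower bounds. NAALADL2 lost its call between the lines in 8 of 15 alternatives, and RBFOX1 in 1. Because of the low level in U2OS, a fall of PTPRD or NAALADL2 after CPT could not have been detected at this depth.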

How the data were processed

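QuantSeq 3′ libraries with unique molecular identifiers were sequenced from both cell lines. The authors deposited raw counts per gene, not normalized, from Lexogen's FWD UMI pipeline for QuantSeq on the BlueBee platform. The genome build and annotation release are not given in the sources used here. Of the rows, 5 summary rows and 92 spike-in rows (3 counts in all libraries) were left out, and 56531 of 60107 gene rows had a span in GENCODE 29. Intervals of count ratios cover counting error only, and ratios to a floor leave out the error of the higher count.

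Genes over 1 count in 2 or more libraries of a comparison were tested with edgeR 4.0.16 (quasi-likelihood, TMM) in R 4.3.3, on the libraries of both groups only, with Benjamini-Hochberg adjustment over all genes, a call at 0.05 and a stricter rule with an absolute log2 fold change over 1. Printed CPM were scaled with TMM factors over all 32 libraries, and fold changes come from each comparison's own fit, so that ratios of printed means can differ slightly. SE is the absolute log2 fold change over the root of F. Alternatives were the likelihood ratio test (the study's), DESeq2 1.42.0, RLE, other filters, all libraries of the set in 1 fit, each library left out, other controls and, chosen after seeing the data, library size alone. On simulated data with 100 genes changed by 1 on the log2 scale, the test recovered 91% in the design of U2OS CPT (18992 genes), 96% in that of the ATM inhibitor (18452 genes), 88% in that of the labels ATM KO and WT (19297 genes), 79% in that of the labels HEK293T CPT and DMSO (18565 genes) and 95% in that of the lines (19574 genes). The changed genes were drawn only from genes above a set mean CPM, so these shares do not cover members at low levels such as MACROD2. The closest replicates differed by 1.82 times the sampling noise (chi-square per degree of freedom), and the study's methods describe them as independent repeats. The most distant, replicates 6 and 8 labelled HEK293T CPT, differed by 24.8 times that noise.

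Members and lists were chosen with earlier results of these data known. Named were the 10 members with the largest changes among those called in U2OS after CPT, the 3 with the largest change in each other comparison, the 4 largest rises and 4 largest falls among other genes of 500 kb and over, and, chosen after their values were seen, further members. The U2OS DMSO and HEK293T DMSO libraries of the later set each enter 2 comparisons.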

Additional observations from a re-analysis of the deposited data

Results flagged for a closer look

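Among 32 groups of 4 libraries of named members examined, 2 held a library far from the others, where chance alone gives about 1 in 20. MACROD2 stood at 4.06 CPM in 1 HEK293T DMSO library (replicate 23), against 2.34 to 2.44 CPM in the other 3. DPYD stood at 1.41 CPM in 1 library labelled U2OS ATM KO (replicate 10), against 0.543 to 0.611 CPM in the other 3. Neither gene was called in the comparison concerned.

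CNTNAP2 had opposite signs in the comparisons labelled CPT against DMSO whose libraries have a U2OS marker profile: the log2 fold change was -1.91 in U2OS of the later set and 1.58 in the first set, for the label HEK293T CPT against HEK293T DMSO. Every library moved with its group in both. The difference was not tested. The libraries of the first set may be U2OS ATM KO and WT under exchanged labels, so these values do not show that a response to CPT turned.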

How the results depend on the processing

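Of 323 recomputed fold changes of the members named by the rule on largest changes, 303 kept their direction and their side of the threshold, 19 lost their call and 1 reversed: ZBTB20 in HEK293T cells with the ATM inhibitor went to -1.55 (adjusted p = 0.532) when all 8 HEK293T DMSO libraries served as controls, 3 of which have a U2OS profile. Among further members, 2 reversals with added libraries, of ZBTB20 and SUPT3H, stand in the report. In U2OS after CPT, DESeq2 called 8 members (3 higher, 5 lower), and 4 passed with an absolute log2 fold change over 1. That stricter rule left 5 members between the libraries labelled U2OS ATM KO and WT, 4 between those labelled HEK293T CPT and DMSO, and 15 between the lines. With all libraries of a label, each of the comparisons of the first set called 1 member. Leaving out 1 library gave 8 to 14 members in U2OS after CPT, 0 with the ATM inhibitor, 10 to 12 between the labels ATM KO and WT, 5 to 10 between the labels HEK293T CPT and DMSO, and 26 to 29 between the lines. The cause was not tested. With library size alone, the median over all genes also moved between the lines (0.01 to -0.21), with 10 members higher and 19 lower in U2OS. Limits of 300 and 800 kb in place of 500 kb left the share of genes called within 1.5 times. No paired analysis was run, because the labels number the libraries in 1 running series that no groups share. The study describes independent repeats, but no source used here ties libraries of different groups to 1 of them. Depth limits members under about 3 CPM, whose calls rest on few counts.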
